A study of Homo sapiens with 12 samples.

Results

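The genes described here are 10 transcription factors of the AP-1 and ATF3 group: *FOS*, *FOSB*, *FOSL1*, *FOSL2*, *JUN*, *JUNB*, *JUND*, *ATF3*, *MAFF* and *BATF3*. They were taken by symbol from the 28901 named genes of the deposited table. The choice was made with earlier results of these data known, so that it was not blind. All 10 were present and passed the filter on low counts. Poly(A) RNA was sequenced from ASC52telo hTERT cells, an adipose stromal line immortalized with telomerase, after 14 days of culture towards adipocytes. The cells carried a lentiviral scramble shRNA (scramble control) or an shRNA against the long intergenic noncoding RNA linc-ADAIN (linc-ADAIN KD), and were left untreated or given lipopolysaccharide (LPS), a bacterial product sensed by toll-like receptor 4, at 100 ng/mL for 4 h. Each of the 4 groups held 3 libraries. All groups shared the ZsGreen vector, sorting for ZsGreen, and a differentiation medium with insulin and the glucocorticoid dexamethasone, to which the PPARγ agonist rosiglitazone and the cAMP-raising drug isobutylmethylxanthine were added in the earlier stage only. The methods name 1 line and 1 hairpin, in cells transduced and sorted before differentiation, so that the shRNA and the sorted population that carries it cannot be told apart. The study describes these data as 1 experiment in triplicate, so that p-values measure the spread within that experiment. Linc-ADAIN RNA was not analysed here, so that the KD was not checked in these libraries. The study reports from qPCR that the shRNA lowered linc-ADAIN in hTERT adipocytes.

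AP-1 is a dimer of basic leucine zipper (bZIP) proteins. JUN proteins pair with each other or with FOS proteins, which cannot pair among themselves, and the dimers bind the TRE element, TGACTCA, or the related CRE element, TGACGTCA. *FOS*, *FOSB*, *JUN*, *JUNB* and *ATF3* are immediate-early genes, transcribed within minutes of a growth factor, cytokine or stress signal carried by MAP kinases, and their mRNAs are short-lived. *FOSL1* and *FOSL2* lack the strong activation domain of FOS and tend to be made later and kept longer, ATF3 is also a target of the integrated stress response, and MAFF is a small MAF protein with no activation domain of its own. In fat tissue, AP-1 is known both from early adipogenesis and from the inflammatory response of adipocytes and stromal cells.

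Promoter sequence from RefSeq was at hand for 8 of the 10 genes. The windows of 300 bases (250 before the transcription start and 50 after) were searched on both strands. *ATF3* and *MAFF* had 2 windows each and counted with a match in either, while the shares over all are per window. The CRE half-site TGACG, which is also part of each full CRE, was found in 7 of the 8 genes (*FOS*, *FOSB*, *FOSL2*, *JUN*, *JUNB*, *JUND* and *MAFF*) and in 24.6% of all 35116 promoter windows. The full CRE was found in 2 of the 8, *JUND* and *MAFF*, and in 1.85% of all windows. The TATA motif TATAAA was found in 4 of the 8 (*FOS*, *FOSB*, *JUNB* and *ATF3*) and in 11.5% of all windows. The *ATF3* match began at base -230, in the second of its 2 windows. The TRE was found in 1 (*FOSL2*, bases 5 to 11 from the start, 4.95% of all). The NF-κB motif was found in 1 (*MAFF*, in its second window, 11.3% of all) and the CArG box bound by SRF in 0 (1.29% of all). The TRE, the CRE, its half-site and TATAAA were searched as exact letters. Variants of them, and sites of any motif outside the windows, would be missed. The stretches below show a CRE or its half-site before the starts of 4 genes that rose in linc-ADAIN KD. They also show that of *MAFF*, the other gene with a full CRE, which did not pass in KD. *FOSL2* and *JUN* also rose without LPS and hold a half-site, but are not shown. *ATF3* rose with no CRE or half-site in its windows. A link of these sites with the rise was not tested. Capitals mark the full CRE, its half-site on either strand and the TATA motif.
FOS, GRCh38.p14, chr14:75278678-75278837, plus strand: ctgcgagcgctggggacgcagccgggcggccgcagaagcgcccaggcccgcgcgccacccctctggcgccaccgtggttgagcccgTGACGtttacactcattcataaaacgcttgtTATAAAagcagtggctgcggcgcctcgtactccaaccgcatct
FOSB, GRCh38.p14, chr19:45467846-45468005, plus strand: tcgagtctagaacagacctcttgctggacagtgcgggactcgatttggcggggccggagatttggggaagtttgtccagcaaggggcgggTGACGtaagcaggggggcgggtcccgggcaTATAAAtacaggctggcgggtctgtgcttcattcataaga
JUNB, GRCh38.p14, chr19:12791336-12791495, plus strand: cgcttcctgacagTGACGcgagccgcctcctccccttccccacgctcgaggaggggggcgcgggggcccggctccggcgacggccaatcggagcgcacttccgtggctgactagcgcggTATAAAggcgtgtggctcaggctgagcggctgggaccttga
JUND, GRCh38.p14, chr19:18281613-18281832, minus strand: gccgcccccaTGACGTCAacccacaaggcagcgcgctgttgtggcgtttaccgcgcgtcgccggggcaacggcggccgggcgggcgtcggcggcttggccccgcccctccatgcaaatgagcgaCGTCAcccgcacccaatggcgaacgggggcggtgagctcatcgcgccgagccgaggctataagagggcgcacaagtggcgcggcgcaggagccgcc
MAFF, GRCh38.p14, chr22:38201844-38202003, plus strand: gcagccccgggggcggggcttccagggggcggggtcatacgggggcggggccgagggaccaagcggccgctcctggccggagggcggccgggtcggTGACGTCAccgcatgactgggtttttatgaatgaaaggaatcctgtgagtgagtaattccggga

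The half-site and the TATA motif of *FOS* and *FOSB* lay at nearly the same places, the half-site from base -64 of *FOS* and base -60 of *FOSB* and the TATA motif from -33 and -30. *JUNB* held its TATA motif from -31 and its half-site farther out, from -137. The CRE of *JUND* began at base -200 and that of *MAFF* at -54, in the first of the 2 *MAFF* windows. A motif match is a description of these letters and no evidence of binding.

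The 3′ untranslated regions were also searched, on the transcript strand, for ATTTA, the core of the AU-rich elements that mark short-lived mRNAs and are bound by proteins such as HuR. *FOS* held 5 copies in 806 bases, 6.20 per kb, above 94.6% of the 18873 genes with such a region, whose median was 1.54 per kb. *JUNB* followed with 4.00 per kb, and the other 8 genes held 1.19 to 2.67 per kb. The longer element TATTTAT was present in 8 of the 10 genes, all but *JUNB* and *BATF3*, and in 32% of all genes.

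The libraries held 28.4 to 53.8 M counts (M, units of 1000000) on named genes. Within groups, log2 CPM (counts per 1000000) of 2 libraries correlated with r of 0.960 to 0.980 across genes, which are not independent replicates. The share of counts on mitochondrial genes was 8.09% to 9.40% in scramble control, 10.7% to 12.1% with LPS, 11.6% to 14.0% in KD and 11.6% to 12.8% in KD with LPS. The 10 adipocyte markers were all detected, and their summed level was 3150 to 4360 CPM in scramble control, 3680 to 4300 CPM with LPS, 696 to 1880 CPM in KD and 582 to 1240 CPM in KD with LPS. In KD, 7 of these 10 genes were lower without LPS and 8 of 10 with LPS, among them *FABP4* (log2 fold changes of -1.65 and -2.26). The study reports the opposite direction in KD adipocytes from qPCR and western blots. There, adiponectin, FABP4, PPARγ, C/EBPα, perilipin 1 and ATGL were raised by the KD. It also reports more stored lipid and more secreted adiponectin in KD adipocytes. In KD explants from mice, by contrast, it reports lower PPARγ and C/EBPα expression. The cause of the difference between these data and the study's assays of cultured adipocytes was not tested. The 10 stromal and preadipocyte markers summed to 2680 to 3200 CPM over all libraries, but single ones differed in both directions. Of 8 tested, 3 were higher and 3 lower in KD without LPS and again with LPS, among them *THY1* (log2 fold changes of -2.37 and -2.53), *DPP4* (2.08 and 2.40) and *LUM* (2.02 and 2.49). Of the 10 macrophage and leukocyte markers, 3 or 4 were at 0 in all libraries of a group, and the sum was 54.6 to 71.9 CPM in the scramble groups and 29.1 to 41.5 CPM in the KD groups. The 7 endothelial markers summed to 15.5 to 27.2 CPM in the scramble groups and 8.48 to 13.5 CPM in the KD groups, with 1 of the 7 at 0 in every group. The 6 proliferation markers summed to 38.9 to 98.8 CPM in the scramble groups and 64.9 to 99.0 CPM in the KD groups. The summed adipocyte, macrophage and endothelial levels did not overlap between the scramble and the KD groups, although *CD68* was the only macrophage marker lower in KD and *CD14* was higher with LPS. Of 5 endothelial markers tested, 0 were higher and 2 lower in KD without LPS. With LPS, 1 was higher (*KDR*, log2 fold change 4.89) and 3 were lower. The mitochondrial shares did not overlap without LPS and did with LPS. The proliferation sums overlapped, with 3 of the 6 genes higher in KD without LPS (1 without scramble replicate 2 or 3 or KD replicate 2 or 3, and 5 without scramble replicate 1) and 1 with LPS (0 to 5 with single libraries left out). The part of any of these in the results below was not tested. In bulk RNA, fewer cells of a type and less RNA per cell cannot be told apart.

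**Figure D1:**
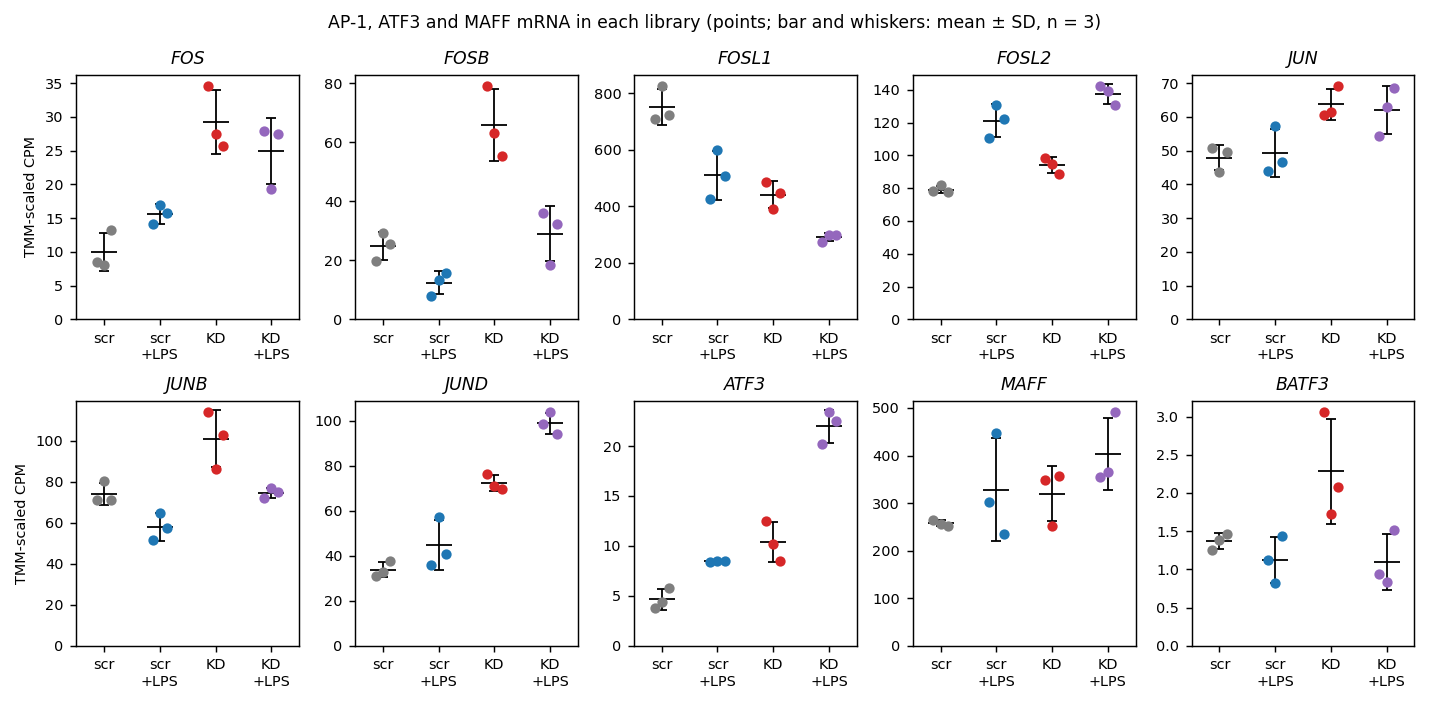
TMM-scaled CPM of the 10 genes in each library (points), with the mean and SD of each group (bar and whiskers, n = 3), each panel with its own axis from 0. The KD points of *FOS*, *FOSB*, *JUND* and *ATF3* lie above the scramble points, those of *FOSL1* lie below them, and *ATF3* is highest in KD with LPS, at 20.2 to 23.4 CPM.

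Per kb of transcript, so that genes can be compared, *FOSL1* had the highest mean level of the 10 and *MAFF* the next in every group. In scramble control *FOSL1* stood at 442 ± 37.1 CPM per kb and *MAFF* at 109 ± 2.59 CPM per kb (SD, n = 3 libraries, as for every ± here). *JUNB* followed at 40.5 ± 2.98 CPM per kb, then *JUND* (17.5 ± 1.72), *JUN* (14.7 ± 1.18), *FOSL2* (11.8 ± 0.361), *FOSB* (6.61 ± 1.25), *FOS* (4.72 ± 1.35), *ATF3* (2.40 ± 0.538) and *BATF3* (1.64 ± 0.126). Among neighbours in that order, the libraries of *FOSB* and *FOS* overlapped, and the others did not. In KD with LPS the top of the order was level, with *FOSL1* at 171 ± 8.02 and *MAFF* at 170 ± 31.7 CPM per kb and overlapping libraries. There *JUND* (51.2 ± 2.47) stood above *JUNB* (40.8 ± 1.31), the reverse of the other 3 groups, and *ATF3* (11.3 ± 0.848) had come level with *FOS* (11.9 ± 2.30), both as levels in CPM per kb.

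Without LPS, 7 of the 10 genes were higher in linc-ADAIN KD than in scramble control (*FOS*, *FOSB*, *FOSL2*, *JUN*, *JUNB*, *JUND* and *ATF3*), 1 was lower (*FOSL1*) and 2 did not pass (*MAFF* and *BATF3*). A gene counts as higher or lower here when edgeR's quasi-likelihood test gave it an adjusted p under 0.05 over all genes. Of the 16217 genes tested, 12.1% were higher and 15.1% lower. The difference was at least 2-fold, the study's second threshold, for 4 of the 10 genes (*FOS*, *FOSB*, *JUND* and *ATF3*) and for 7.77% of all genes. The median log2 fold change was 0.59 over the 10 genes and 0.024 over all genes tested. When libraries were scaled by size only, the median of all genes moved to 0.13 without LPS and to 0.11 with LPS, and the log2 fold changes of the members moved up by about the same amount.

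With LPS in both groups, 5 of the 10 were higher in KD (*FOS*, *FOSB*, *JUNB*, *JUND* and *ATF3*), *FOSL1* was lower and 4 did not pass (*FOSL2*, *JUN*, *MAFF* and *BATF3*). Over all 15981 genes tested, 12.7% were higher and 14.2% lower. At least 2-fold differences were found for 3 of the 10 (*FOSB*, *JUND* and *ATF3*) and for 8.48% of all genes. The median log2 fold change was 0.35 over the 10 genes and 0.025 over all.

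LPS raised 3 of the 10 genes in scramble control (*FOS*, *FOSL2* and *ATF3*) and lowered 3 (*FOSB*, *FOSL1* and *JUNB*), where 5.90% of the 15920 genes tested rose and 8.38% fell. None of the 10 changed at least 2-fold, with *FOSB* just under that threshold, against 2.68% of all genes. In KD, LPS raised *FOSL2*, *JUND* and *ATF3* and lowered *FOSB*, *FOSL1* and *JUNB*, again 3 and 3 of the 10, where 5.32% of 16169 genes rose and 6.03% fell. The change in KD was at least 2-fold for 2 of the 10 (*FOSB* and *ATF3*), against 2.25% of all genes. The 2 LPS comparisons use different libraries, but each shares a group with both KD comparisons. LPS was sampled at 4 h only, so that an earlier rise or fall of short-lived mRNAs would not be seen.

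The interaction, which asks whether the KD effect differed with LPS, passed for 0 of the 10 genes in edgeR's test on all 12 libraries. It passed with a more positive KD effect in 0.943% and a more negative one in 0.332% of 17173 genes. At an unadjusted p under 0.05 the count was 1 of the 10, *FOS*, and DESeq2 gave 1, also *FOS*. The intervals below show what differences remain possible.

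**Figure D2:**
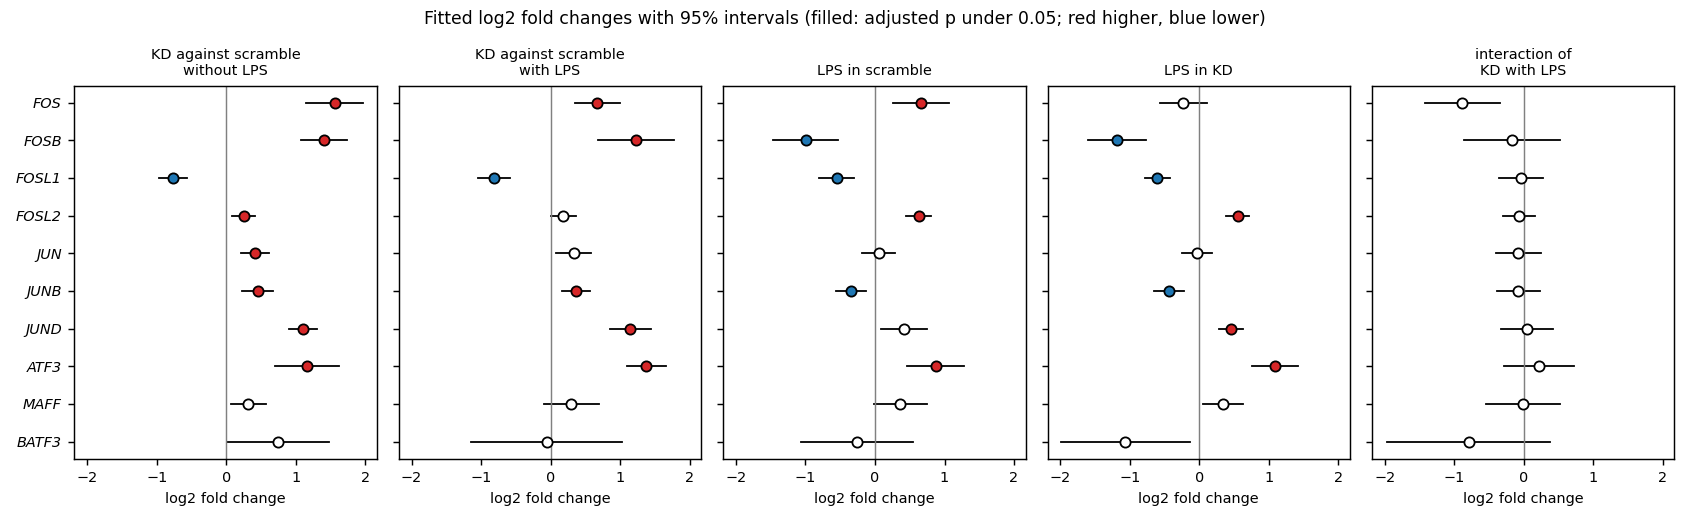
Log2 fold changes of the 10 genes (points) with 95% intervals (lines) in the 4 comparisons of groups and for the interaction, with points filled where the adjusted p of edgeR's test was under 0.05. *FOS*, *FOSB*, *JUND* and *ATF3* lie right of 0 and *FOSL1* lies left of it in both KD comparisons, and no interaction is filled.

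*FOS*, the founding member of the family and the partner that JUN proteins pair with most strongly, lies on chromosome 14 of GRCh38 from 75278826 to 75282230 on the plus strand, in 4 exons. Its level in replicates 1, 2 and 3 was 8.56, 8.04 and 13.2 CPM in scramble control and 14.1, 17.0 and 15.7 CPM with LPS. In KD it was 34.5, 27.4 and 25.6 CPM, and in KD with LPS 27.9, 19.3 and 27.5 CPM. All 3 KD libraries were above all 3 scramble libraries, in each of the comparisons, and the KD libraries with and without LPS overlapped. The log2 fold change in KD was 1.56 without LPS (standard error, SE, 0.187, adjusted p = 7.1e-05 from edgeR's test, as for all adjusted p-values below) and 0.67 with LPS (SE 0.151, adjusted p = 0.0045). LPS raised *FOS* in scramble control by 0.66 on the log2 scale (SE 0.183, adjusted p = 0.031). That call was lost without scramble replicate 1 (adjusted p = 0.10), scramble replicate 2 (0.13), scramble LPS replicate 2 (0.094) or scramble LPS replicate 3 (0.092). In KD the log2 fold change with LPS was -0.23 (95% interval -0.56 to 0.10, adjusted p = 0.42). The interaction of *FOS* was -0.88 (95% interval -1.42 to -0.34, adjusted p = 0.12). It passed without the filter on low counts (adjusted p = 0.019), in DESeq2 (adjusted p = 0.043) and without scramble replicate 3 (-1.14, adjusted p = 0.019).

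*FOSB*, a close relative of *FOS* whose short splice form is known for its stability, lies on chromosome 19 from 45467995 to 45475179 on the plus strand, in 4 exons. The counts are summed per gene and do not separate that form. Its level was 19.9, 29.2 and 25.6 CPM in scramble control and 8.08, 13.4 and 15.6 CPM with LPS. KD libraries stood at 79.0, 63.2 and 55.2 CPM without LPS and 36.1, 18.5 and 32.4 CPM with LPS. The KD libraries without LPS were above all others, and LPS lowered *FOSB* under both shRNAs with no overlap of the libraries. The log2 fold change in KD was 1.40 without LPS (SE 0.153, adjusted p = 3.3e-05) and 1.23 with LPS (SE 0.251, adjusted p = 0.0023). *FOSB* fell with LPS by 1.00 on the log2 scale in scramble control (adjusted p = 0.0082) and by 1.19 in KD (adjusted p = 0.00092). The interaction of *FOSB* was -0.17 (95% interval -0.86 to 0.52). *FOS* and *FOSB* thus changed in opposite directions with LPS in scramble control.

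*FOSL1*, which encodes FRA1, lies on chromosome 11 from 65892049 to 65900573 on the minus strand, in 4 exons, and was the member with the most counts, 8532 to 43389 per library. Its level was 709, 825 and 724 CPM in scramble control and 425, 598 and 508 CPM with LPS. In KD it was 486, 392 and 448 CPM, and in KD with LPS 275, 297 and 300 CPM. It was thus highest in scramble control and lowest in KD with LPS, with the other 2 groups overlapping in between. *FOSL1* fell in KD by 0.76 on the log2 scale without LPS (SE 0.0937, adjusted p = 8.3e-05) and by 0.81 with LPS (SE 0.105, adjusted p = 5.6e-05). With LPS it fell by 0.55 in scramble control (SE 0.114, adjusted p = 0.0076) and by 0.60 in KD (SE 0.0830, adjusted p = 0.00018). The interaction was -0.042 (95% interval -0.36 to 0.28). It was the 1 member lower in KD and the 1 member lower in all 4 comparisons.

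*FOSL2*, which encodes FRA2, lies on chromosome 2 from 28392448 to 28417317 on the plus strand, in 4 exons. Scramble control had 78.1, 82.0 and 77.5 CPM without LPS and 111, 131 and 122 CPM with LPS. KD had 98.1, 95 and 88.6 CPM without LPS and 142, 139 and 131 CPM with LPS. Under each shRNA all libraries with LPS were above all libraries without it, with log2 fold changes of 0.63 in scramble control (SE 0.0795, adjusted p = 0.00027) and 0.55 in KD (SE 0.0783, adjusted p = 0.00025). The log2 fold change of *FOSL2* in KD was small, 0.25 without LPS (SE 0.0756, adjusted p = 0.028) and 0.18 with LPS (95% interval -0.00011 to 0.36, adjusted p = 0.14). The call without LPS was lost when scramble replicate 1 (adjusted p = 0.088), scramble replicate 2 (0.065), scramble replicate 3 (0.099), KD replicate 1 (0.11) or KD replicate 2 (0.059) was left out, while the difference with LPS passed with library size only (0.26, adjusted p = 0.034). The interaction was -0.066 (95% interval -0.29 to 0.16).

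Within the FOS family, compared per kb, *FOSL1* made up 95% ± 0.428 of the mRNA in scramble control, 91.2% ± 0.592 with LPS, 85.1% ± 1.48 in KD and 81.0% ± 2.40 in KD with LPS. The summed level of the family was 465 ± 38.0, 328 ± 53.9, 305 ± 31.8 and 211 ± 5.95 CPM per kb in the same order. The share of *FOS* was 1.03% ± 0.332 in scramble control, 2.28% ± 0.162 with LPS, 4.55% ± 0.460 in KD and 5.62% ± 1.09 in KD with LPS. That of *FOSB* was 1.41% ± 0.179, 0.989% ± 0.244, 5.71% ± 0.766 and 3.65% ± 1.18, and that of *FOSL2* was 2.54% ± 0.130, 5.55% ± 0.459, 4.62% ± 0.474 and 9.71% ± 0.694. So the rises of *FOS* and *FOSB* in KD were in genes that held a small part of the family's mRNA, while its most abundant gene fell. These shares are a description with no test, and they rest on 1 transcript length per gene.

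**Figure D3:**
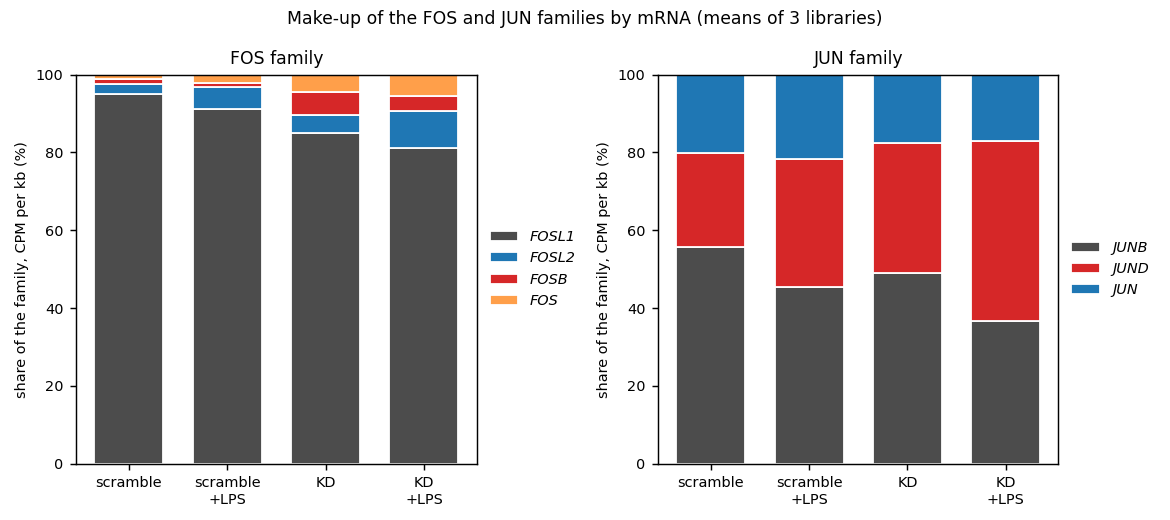
Share of each gene in the mRNA of the FOS family (left) and the JUN family (right), in percent of the family's CPM per kb, as means of 3 libraries in each group. The *FOSL1* part shrinks from 95% in scramble control to 81.0% in KD with LPS, and the *JUND* part grows from 24.1% to 46.1%.

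*JUN*, the classic activating JUN protein and a target of JNK, is a gene of 1 exon on chromosome 1 from 58776845 to 58784048 on the minus strand. It stood at 50.7, 43.6 and 49.6 CPM in scramble control and 44.1, 57.4 and 46.5 CPM with LPS. In KD it stood at 60.7, 61.3 and 69.1 CPM, and in KD with LPS at 54.4, 62.8 and 68.7 CPM. KD and scramble libraries were apart without LPS and overlapped with LPS. The log2 fold change in KD was 0.41 without LPS (SE 0.0908, adjusted p = 0.0051) and 0.33 with LPS (SE 0.117, adjusted p = 0.053). The second passed in 8 of 13 alternatives. Among these were the fits without scramble LPS replicate 2 (adjusted p = 0.010) or KD LPS replicate 1 (0.029). With all libraries of the comparison kept, the lowest adjusted p in other processing was 0.018. No change with LPS was detected at 4 h, the 1 time sampled, in scramble control (log2 fold change 0.052, 95% interval -0.19 to 0.29) or in KD (-0.039, 95% interval -0.26 to 0.18).

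*JUNB*, a weaker activator that can hold back JUN, is also a gene of 1 exon, on chromosome 19 from 12791486 to 12793315 on the plus strand. It overlaps *HOOK2* on the other strand by 259 bases. Its level was 71.0, 80.4 and 70.9 CPM in scramble control and 51.5, 64.7 and 57.4 CPM with LPS. In KD it was 114, 86.3 and 103 CPM, and in KD with LPS 72.1, 76.8 and 74.9 CPM, so that KD with LPS and scramble control without LPS overlapped. In KD *JUNB* was higher by 0.45 on the log2 scale without LPS (SE 0.104, adjusted p = 0.0068) and 0.37 with LPS (SE 0.0955, adjusted p = 0.011). *JUNB* fell with LPS by 0.34 in scramble control (adjusted p = 0.033) and by 0.44 in KD (adjusted p = 0.0094). The call in scramble control was lost without scramble replicate 1 (adjusted p = 0.062), 2 (0.17) or 3 (0.055) or scramble LPS replicate 1 (0.094) or 3 (0.10), and that in KD without KD replicate 1 (0.055). The pattern over the 4 groups was that of *FOSB*, with smaller differences.

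*JUND*, the JUN gene known for steady expression in resting cells, has 1 exon on chromosome 19 from 18279694 to 18281622 on the minus strand. Scramble control had 31.0, 32.8 and 37.5 CPM and, with LPS, 36.0, 57.2 and 40.8 CPM. KD had 76.1, 71.0 and 69.6 CPM and, with LPS, 98.6, 104 and 94.1 CPM. All KD libraries lay above all scramble libraries, with or without LPS. KD libraries were higher by a log2 fold change of 1.10 without LPS (SE 0.0926, adjusted p = 4.1e-06) and 1.15 with LPS (SE 0.138, adjusted p = 3e-05), and the interaction was 0.048 (95% interval -0.33 to 0.43). LPS raised *JUND* in KD by 0.45 on the log2 scale (SE 0.0818, adjusted p = 0.0018). In scramble control the log2 fold change was nearly as large, 0.42, with a wider spread (SE 0.150, adjusted p = 0.092), and it passed without the filter on low counts (adjusted p = 0.030), in DESeq2 (0.041), in the fit on all 12 libraries (0.044) and without scramble LPS replicate 1 (0.55, adjusted p = 0.024).

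*JUND* made up 24.1% ± 2.09 of the JUN family's mRNA per kb in scramble control, 32.8% ± 2.67 with LPS, 33.5% ± 2.09 in KD and 46.1% ± 1.89 in KD with LPS. *JUNB* went from 55.7% ± 3.21 in scramble control to 36.7% ± 0.211 in KD with LPS. The summed level of the family was 72.7 ± 1.99 and 69.9 ± 11.5 CPM per kb in scramble control without and with LPS, and 112 ± 8.81 and 111 ± 3.90 CPM per kb in KD. The JUN sum was thus higher in KD and the FOS sum lower, again as a description with no test.

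*ATF3*, a bZIP factor that represses many promoters as a homodimer and is induced by stress and by toll-like receptor signals, lies on chromosome 1 from 212565334 to 212620777 on the plus strand, with 4 exons in the transcript used here. Its level was 3.80, 4.37 and 5.82 CPM in scramble control and 8.41, 8.52 and 8.51 CPM with LPS. In KD it was 12.5, 10.2 and 8.52 CPM, and in KD with LPS 20.2, 23.4 and 22.5 CPM. The lowest KD library was at the level of scramble control with LPS, and KD with LPS stood above all other libraries. In KD *ATF3* was higher by 1.16 on the log2 scale without LPS (SE 0.208, adjusted p = 0.0013) and 1.37 with LPS (SE 0.129, adjusted p = 2.9e-06). LPS raised *ATF3* by 0.88 in scramble control (SE 0.187, adjusted p = 0.0088) and by 1.08 in KD (SE 0.155, adjusted p = 0.00026). The interaction was 0.22 on the log2 scale (95% interval -0.29 to 0.73, adjusted p = 0.84). *ATF3* was the 1 member higher in all 4 comparisons.

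*MAFF*, on chromosome 22 from 38200767 to 38216507 on the plus strand, has 3 exons and overlaps *PLA2G6* on the other strand by 326 bases. It was at 265, 256 and 253 CPM in scramble control, 302, 448 and 235 CPM with LPS, 350, 252 and 357 CPM in KD and 356, 365 and 490 CPM in KD with LPS. The spread was wide in each group but scramble control, and the libraries overlapped in each of the 4 comparisons. No comparison passed, with log2 fold changes of 0.31 and 0.30 in KD (adjusted p = 0.064 and 0.27) and of 0.36 and 0.34 with LPS (adjusted p = 0.21 and 0.14). The calls of *MAFF* depended on the processing and on single libraries. The KD difference without LPS passed with library size only (adjusted p = 0.015), without the filter on low counts (0.024) and in DESeq2 (0.018), and LPS in KD passed without the filter (0.011). Without KD replicate 2 the KD difference without LPS became 0.45 (adjusted p = 0.0016), that with LPS became 0.59 (adjusted p = 0.0094) without scramble LPS replicate 2, and LPS in scramble control became 0.55 (adjusted p = 0.035) without scramble LPS replicate 3.

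*BATF3*, known from dendritic cell development, lies on chromosome 1 from 212686417 to 212699840 on the minus strand, in 3 exons. It was the least abundant member, at 1.25, 1.39 and 1.46 CPM in scramble control, 1.12, 0.83 and 1.43 CPM with LPS, 3.05, 1.73 and 2.07 CPM in KD and 0.93, 0.84 and 1.51 CPM in KD with LPS. The KD libraries without LPS lay above those of every other group. The log2 fold changes of 0.74 in KD without LPS (95% interval 0.0058 to 1.47, adjusted p = 0.13) and -1.06 with LPS in KD (95% interval -1.99 to -0.14, adjusted p = 0.15) did not pass. With so few counts these intervals reach from almost no difference to more than 2-fold.

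The genes whose log2 CPM followed a member most closely over the 12 libraries were picked from 11801 candidates by Pearson's r. The libraries fall into 4 groups, so that r mostly reflects the order of the group means, and it is given as a description. For *ATF3* they were *ARRDC3* (r = 0.986) and *INSIG2* (r = 0.983), for *FOSL1* *RAI1* and *EIF4G1* (both r = 0.988), and for *FOSL2* *WTAP* (r = 0.984) and *ZC3H12A* (r = 0.983). *JUND* was followed by *RPS21* (r = 0.980) and *DDIT4* (r = 0.977), *JUNB* by *GADD45B* (r = 0.970) and *LIMK1* (r = 0.968), and *FOSB* by *DAB2* and *ZNF512* (both r = 0.966). The nearest for *FOS* was *SPEF2* (r = 0.956), and the nearest were for *MAFF* *GPM6A* (r = 0.955) and *RUNX3* (r = 0.954), for *JUN* *NAA38* (r = 0.948) and *GABBR2* (r = 0.934), and for *BATF3* *ELP3* (r = 0.937) and *ARRDC2* (r = 0.902). The levels of *ARRDC3* show the pattern it shares with *ATF3*, at 26.5 CPM in scramble control, 78.1 with LPS, 101 in KD and 312 in KD with LPS. *RAI1* ran the other way with *FOSL1*, at 124, 77.1, 63.1 and 38.4 CPM in the same order.

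Of 12 genes of the integrated stress response beside *ATF3*, 11 were higher in KD and 0 lower, both without and with LPS. The list's median log2 fold change was 1.7 without LPS and 1.6 with LPS, beside 0.024 and 0.025 over all genes. For this and the lists below, the shares over all genes in KD were 12.1% higher and 15.1% lower without LPS. With LPS in both groups they were 12.7% and 14.2%. For the LPS comparisons they were 5.90% and 8.38% in scramble control and 5.32% and 6.03% in KD. *DDIT4*, an inhibitor of mTORC1, was higher by 2.26 (SE 0.167, adjusted p = 1.5e-06) and 2.42 (SE 0.152, adjusted p = 6e-08). *CHAC1*, which degrades glutathione, had 0 to 19 counts in the scramble libraries against 139 to 269 in those of KD, and 0 to 5 against 92 to 351 with LPS. *HERPUD1*, of endoplasmic reticulum-associated degradation, was higher by 2.07 with LPS (SE 0.130, adjusted p = 5.9e-08). The gene that did not pass was *CEBPB* without LPS (adjusted p = 0.056) and *VLDLR* with LPS (adjusted p = 0.18). With LPS itself, 2 of the 12 rose and 1 fell in scramble control, and 4 rose and 1 fell in KD, with median log2 fold changes of 0.14 and 0.28. The 3 calls in scramble control became 1 without scramble replicate 2 or 3 or scramble LPS replicate 3. *DDIT4* rose under both shRNAs, by 0.66 (adjusted p = 0.040) and 0.81 (adjusted p = 0.0011), and *PPP1R15A*, which reverses the stress response's block on translation, fell by 0.54 (adjusted p = 0.0063) and 0.31 (adjusted p = 0.041).

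Of 22 other immediate-early genes, 12 were higher and 3 lower in KD without LPS, and 13 higher and 4 lower with LPS, with median log2 fold changes of 0.30 and 0.49. *NR4A3*, an orphan nuclear receptor, was higher by 2.54 (SE 0.130, adjusted p = 1.1e-07) and 2.76 (SE 0.0934, adjusted p = 3.6e-10), and *SGK1*, a kinase that glucocorticoids also induce, by 1.54 (SE 0.0896) and 2.27 (SE 0.0938). *KLF4* (-1.20 and -1.17), *RHOB* (-1.14 and -1.13) and *MYC* (-0.50 and -0.65) were lower in both. LPS raised 3 and lowered 11 of the 22 in scramble control, and raised 4 and lowered 12 in KD, with medians of -0.39 and -0.42. *CCN1*, a matricellular protein gene, fell by 1.38 and 0.92 and *NR4A3* rose by 1.18 and 1.40 on the log2 scale.

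Of 24 tested genes on a textbook list of AP-1 targets, 10 were higher and 5 lower in KD without LPS and 15 higher and 5 lower with LPS, with medians of 0.63 and 0.95. *MMP1*, interstitial collagenase, whose promoter is a classic TRE target, had 53 to 109 counts in the scramble libraries and 3182 to 6143 counts in the KD libraries, a log2 fold change of 6.13 (SE 0.237, adjusted p = 2.3e-08). With LPS it had 25 to 56 and 6949 to 10518 counts, a log2 fold change of 7.81 (SE 0.275, adjusted p = 4.9e-10). *PLAU*, urokinase, was lower by -2.28 and -1.74 on the log2 scale. *MMP10* had at most 2 counts in scramble control with LPS and 107 to 173 in KD with LPS. LPS raised 7 and lowered 11 of 23 tested in scramble control (median -0.49), and raised 10 and lowered 9 of 24 in KD (median 0.32). The interaction passed with a more positive KD effect for 5 of the 24 (*MMP3*, *MMP10*, *IL6*, *CCL2* and *PTGS2*) and with a more negative one for 0, and these 5 became 3 without scramble replicate 2 and 8 without the filter on low counts. Over all genes these shares were 0.943% and 0.332%. The immediate-early list had 5 more positive and 1 more negative of 22. The upstream kinases and factors had 1 and 0 of 21, the other bZIP genes 0 and 1 of 15, and the stress response genes 0 and 0 of 12. *MMP3* fell with LPS by 1.82 in scramble control and had a log2 fold change of -0.050 with LPS in KD (interaction 1.79, SE 0.235, adjusted p = 0.00062).

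Of the other AP-1, CREB and MAF bZIP genes, 5 of 14 tested were higher and 2 lower in KD without LPS, and 6 of 15 higher and 2 lower with LPS, with medians of 0.46 and 0.19. Over all genes, 12.1% were higher and 15.1% lower without LPS, and 12.7% and 14.2% with LPS. *CREB5*, a CRE-binding relative of ATF2, was higher by 1.38 (SE 0.152, adjusted p = 3.7e-05) and 1.74 (SE 0.142, adjusted p = 7.4e-07), and *CREM*, whose short form represses cAMP responses, by 1.22 and 0.67. *CREB1* was lower by -0.89 and -0.49. LPS raised 3 and lowered 2 of 15 in scramble control and raised 3 and lowered 0 of 14 in KD, with *CREB5* rising in both by 0.77 and 1.12. The 5 calls in scramble control became 2 without scramble replicate 2, and the 3 in KD became 5 with DESeq2.

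Of 21 kinases and factors upstream of AP-1, 2 were higher and 9 lower in KD without LPS, and 4 higher and 4 lower with LPS, with medians of -0.16 and -0.011. The 11 calls without LPS became 6 without scramble replicate 2 and 7 without KD replicate 1. Over all genes, 12.1% were higher and 15.1% lower in KD without LPS, and 12.7% and 14.2% with LPS. *SRF*, which acts on CArG boxes with the ELK factors, was lower by -0.998 (adjusted p = 1.7e-06) and -0.82 (adjusted p = 3.5e-05). *MAPK7*, the kinase ERK5, was lower by -1.31 and -1.01, while *MAP3K5*, the stress kinase ASK1, was higher by 1.10 and 1.23. LPS raised 3 and lowered 6 of the 21 in scramble control and raised 3 and lowered 3 in KD. *MAP3K5* (1.57 and 1.69) and *MAP3K8* (1.45 and 1.72), a kinase of toll-like receptor signalling, rose in both, and *SRF* fell in both, by 0.75 and 0.57. These are mRNA levels and carry no measure of kinase activity.

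**Figure D4:**
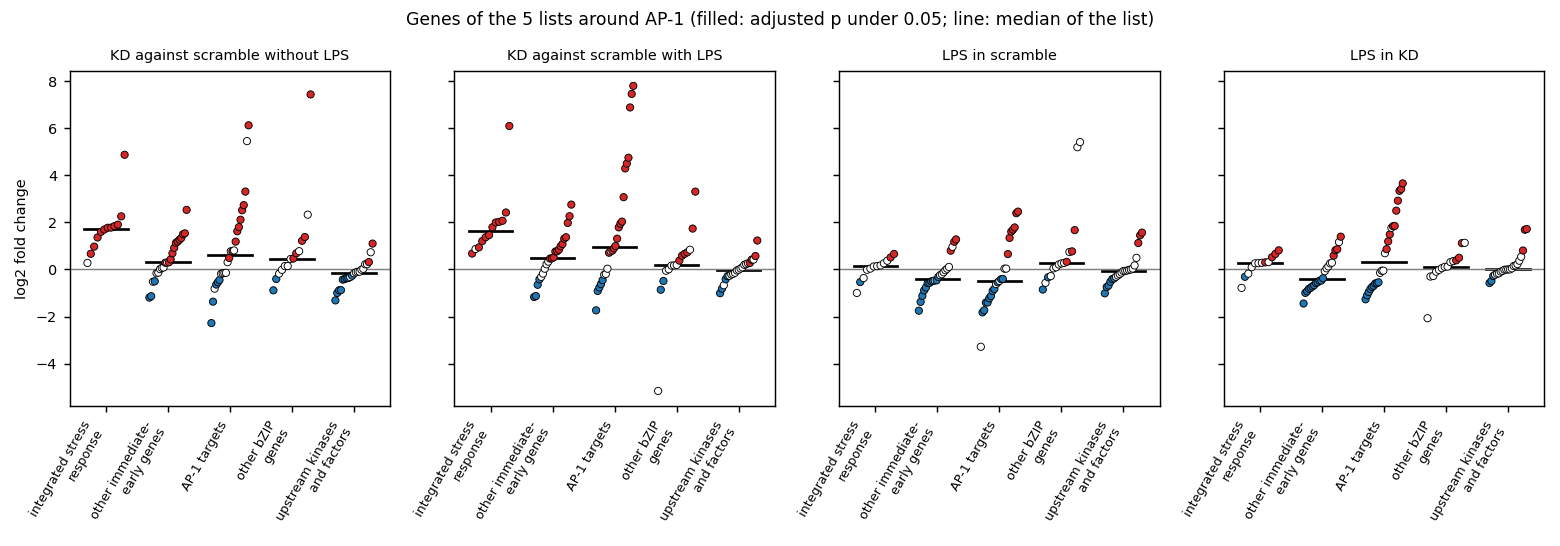
Log2 fold change of each tested gene (points, sorted within a list) of the 5 lists around AP-1 in the 4 comparisons, where filled points mark an adjusted p under 0.05 (red higher, blue lower) and black lines mark list medians. In both KD comparisons 11 of the 12 stress response genes are filled red, and the points beyond 5 or below -3 on the axis, other than *MMP1*, are genes with few or no counts in 1 group.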

How the data were processed

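Stranded poly(A) RNA-seq of 12 libraries was analysed. The authors pseudoaligned reads to GRCh38 transcriptomes with kallisto 0.44.0 and deposited estimated counts per gene name, not normalized for depth or length. Bcl2fastq 2.19 and DESeq2 1.32.0 are also named in the submitters' processing notes. The annotation release and the strand setting are not given in the sources used here, and reads of *JUNB* and *HOOK2* or *MAFF* and *PLA2G6* may be shared. All values were whole. A row without a name (0.235% to 0.306% of counts) was left out.

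In R 4.3.3, genes with at least 10 counts over the libraries of a fit were tested with edgeR 4.0.16 (TMM scaling, quasi-likelihood F test, Benjamini-Hochberg adjustment over all genes), on 6 libraries per comparison of groups and on 12 for the interaction. The standard error is the log2 fold change over the square root of F. With 3 libraries against 3, an exact two-sided permutation test of 1 gene cannot go below p = 0.1, so that only the fit across genes was used. CPM are TMM-scaled over all 12 libraries. Totals of 28.4 to 53.8 M counts (units of 1000000) per library limit genes of few counts, and no interval was computed from counts alone. The steps were tested on simulated data, where false calls exceeded the nominal rate once the spread was allowed to vary from gene to gene.

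The members and lists were chosen with earlier results of these data known. All members are named. From each list, up to 3 genes per direction and comparison with the largest difference, an adjusted p under 0.05 and a mean of at least 50 counts could be named, and up to 2 genes per member by correlation. Some genes that meet this rule are not reported here. Other genes named where 5 or fewer passed or failed (*CEBPB*, *CCL2*, *PTGS2* and *CD14*) and *ARRDC3* and *RAI1* as the examples with levels were chosen after their values were seen, as were *VLDLR* with LPS and *MMP3* with LPS in KD. Positions, lengths and 3′ regions are those of GENCODE release 44 (canonical transcripts), promoters those of RefSeq on GRCh38.p14. Alternatives were library-size and DESeq2 scaling, other filters, DESeq2 1.42.0, a fit on all 12 libraries, a replicate block and each library left out.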

Additional observations from a re-analysis of the deposited data

How the results depend on the processing

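Of 50 member results, each in 1 of 5 comparisons, 29 kept their direction and their side of the threshold in every alternative run, 4 lost their call in at least 1 (*FOSL2*, *FOS* and *JUNB*, as given above), 8 gained one and 9, none of them called, reversed in at least 1. The cause was not tested. With library size only, *BATF3* in KD with LPS was 0.0279 on the log2 scale. With libraries left out in turn, the results that reversed lay between -0.352 and 0.1565 for *BATF3* in KD with LPS, between -0.06745 and 0.1257 for *JUN* with LPS in scramble control and between -0.1216 and 0.04507 for *JUN* with LPS in KD. In the same fits the interactions lay between -0.4068 and 0.07211 for *FOSB*, -0.158 and 0.08818 for *FOSL1*, -0.1581 and 0.04214 for *JUN*, -0.1945 and 0.01558 for *JUNB*, -0.08516 and 0.2635 for *JUND* and -0.2023 and 0.2792 for *MAFF*.

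The members called in the interaction numbered 0, but 1 without the filter on low counts and 1 with DESeq2, and 0 to 1 with libraries left out. Over all genes the interaction was called in 219, in 431 without the filter, in 475 with DESeq2 and in 92 to 243 with libraries left out (lowest without scramble replicate 2). LPS in scramble control was called in 2274 genes, and in 1187 to 2106 with libraries left out (lowest without scramble replicate 2).

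Replicates share numbers across groups, and these values do not settle whether the numbers pair the samples. Deviations of same-numbered libraries correlated between -0.134 and 0.234 and passed 0.1 in 4 of 18 pairs. Without against with LPS, same-numbered r was 0.234, 0.0619 and 0.041 in scramble control and 0.109, -0.0629 and 0.123 in KD. In all, 6 of 12 libraries correlated best with their own number. The main fits used no pairing. With the replicate block, 7 members were called in each of the 4 comparisons of groups, in place of 8, 6, 6 and 6, and 0 in the interaction. The block ended the call of *FOSL2* in KD without LPS (adjusted p = 0.066), and *JUN* in KD with LPS (0.022), *JUND* with LPS in scramble control (0.014) and *MAFF* with LPS in KD (0.0010) passed with it. Over all genes the block moved the calls for LPS in scramble control from 2274 to 3260 and those for KD without LPS from 4411 to 3857.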
